A study of Mus musculus with 8 samples.

Results

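The miR-26 and miR-101 families are small RNAs known to bind the mRNA of Ezh2, the methyltransferase subunit of the Polycomb repressive complex. Their 5 members taken here were the miRNAs whose name on the array was mmu-miR-26a-5p, mmu-miR-26b-5p, mmu-miR-26b-3p, mmu-miR-101a-3p or mmu-miR-101b-3p (mmu, for mouse, is left out of most names below), 5 of the 1881 mouse miRNAs on the array. The study measured miRNAs in total RNA of whole kidney on 8 single-colour Agilent arrays, 1 array per sample and 4 per group. The db/db group (strain label C57BLKS/J Iar -+Leprdb/+Leprdb) is homozygous for a mutation that leaves the mice without a functional leptin receptor, so that they become obese and diabetic. The other group was age-matched control mice (strain label C57BLKS/J Iar -m+/m+). All samples came from males aged 28 weeks. The source labels call the controls m/m, and their strain label gives the allele m and no Leprdb. The titles call them dbm, so whether they carried a db allele is not settled. The db/db strain label carries no m. By the strain labels the groups thus differ at m as well, and m and Leprdb cannot be told apart. The labels do not say that each sample is a separate animal, and p-values therefore measure only the spread between these samples.

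A miRNA guides the Argonaute protein to mRNAs that pair with its seed, bases 2 to 8 from the 5′ end, and the paired mRNA is then repressed. miR-101 in human tumours and miR-26a in mouse muscle precursors and lymphoma are known to lower Ezh2 in this way, which lessens the methylation of histone H3 that keeps genes silent. The miR-26 hairpins lie in genes of the small CTD phosphatases, and miR-26 is known to be made along with those host transcripts. Ezh2 mRNA and protein were not measured on these arrays.

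The mature sequences are shown first because they decide which members a probe can tell apart and which share a seed. They are written 5′ to 3′ with the seed in capitals, and they come from RefSeq on GRCm38.p6, where all 5 members were matched.
miR-26a-5p: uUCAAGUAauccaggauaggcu
miR-26b-5p: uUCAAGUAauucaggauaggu
miR-26b-3p: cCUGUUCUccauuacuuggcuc
miR-101a-3p: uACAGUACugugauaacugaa
miR-101b-3p: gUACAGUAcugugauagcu
miR-101c: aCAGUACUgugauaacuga
miR-144-3p: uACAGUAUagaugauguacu

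miR-26a-5p and miR-26b-5p share the seed UCAAGUA, and no other mouse miRNA in the RefSeq table carries it. Counted from the 5′ end of miR-26a-5p, they differ at C11U and C21U, and miR-26b-5p is 21 bases long against 22 for miR-26a-5p. miR-26b-3p is the opposite arm of the miR-26b hairpin and has another seed, CUGUUCU. miR-101b-3p as listed starts 1 base further 5′ than miR-101a-3p, so its bases 2 to 8 are shifted. Aligned on the shared stretch, miR-101a-3p and miR-101b-3p differ at A16G, counted from the 5′ end of miR-101a-3p. miR-101c, which is no member but was on the array, has 19 bases that equal bases 2 to 20 of miR-101a-3p. miR-144-3p, an erythroid miRNA, has the same first 7 bases as miR-101a-3p and differs from it at 12 of the bases that follow, the first of them C8U, the last base of the seed.

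miR-26a-5p is encoded at 2 loci, chr9:119031811-119031832 within the bounds of Ctdspl and chr10:126995543-126995564 within those of Ctdsp2, both on the plus strand. Both miR-26b arms come from 1 hairpin within the bounds of Ctdsp1 on the plus strand, miR-26b-5p at chr1:74394324-74394344 and miR-26b-3p at chr1:74394360-74394381. miR-101a-3p lies at chr4:101346957-101346977 on the minus strand, within the bounds of the long non-coding RNA gene E130102H24Rik. miR-101b-3p lies at chr19:29135338-29135356 on the plus strand, within the bounds of Rcl1, a gene of ribosomal RNA processing. Whether each locus is intronic or exonic was not determined. The miR-26b hairpin is printed because one arm was detected on all 8 arrays and the other on 2, with the 5p arm and then the 3p arm in capitals (85 bases, chr1:74394310-74394394).
Mir26b: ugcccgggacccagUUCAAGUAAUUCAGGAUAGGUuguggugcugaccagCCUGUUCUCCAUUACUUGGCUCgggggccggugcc

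In the kidneys of these mice, miR-26a-5p, miR-26b-5p and miR-101a-3p were detected on all 8 arrays, and each had a slightly higher mean signal in db/db than in control kidneys. Only miR-26b-5p passed the test, at 1.10-fold (95% interval 1.03 to 1.16). miR-26b-3p was detected on 2 arrays and miR-101b-3p on 1. Of the 5 members, 3 therefore passed the filter for testing, which asked for detection on all 4 arrays of at least 1 group. With 1 of 3 tested members higher and none lower, the count stands beside 41.8% of the 316 tested miRNAs called either way, 24.4% called higher and 17.4% called lower. The share of the members called is thus near the background and no result about the families. Values are log2 of the array signal after each array was scaled to a common 75th percentile, and changes are differences of these log2 values, db/db minus control.

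**Figure D1:**
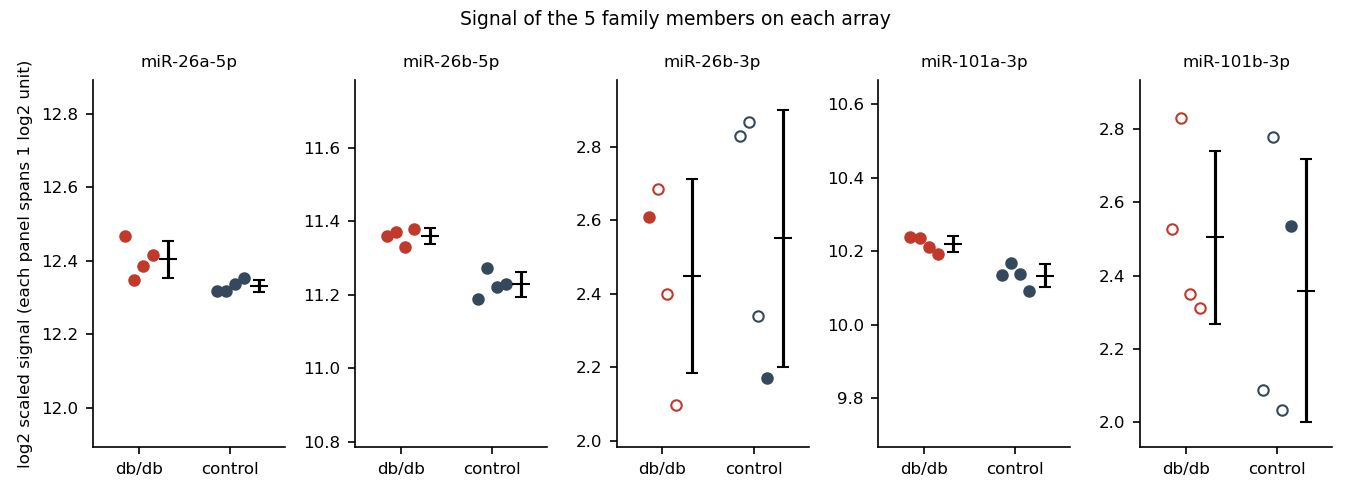
Log2 scaled signal of each of the 5 members (1 panel each) on the 4 db/db arrays and the 4 control arrays; filled points are arrays where the miRNA was called detected, open points arrays where it was not, and bars give the mean and SD. The y axis of every panel spans 1 log2 unit but starts at another value; db/db points of miR-26b-5p and miR-101a-3p all lie above the control points, those of the other 3 members overlap them.

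mmu-miR-26b-5p read 11.36, 11.37, 11.33 and 11.38 in db/db replicates 1 to 4, against 11.19, 11.27, 11.22 and 11.23 in control replicates 1 to 4. All db/db arrays lay above all control arrays. The means were 11.36 ± 0.02 in db/db and 11.23 ± 0.03 in control kidneys (SD, n = 4 each), a change of 0.13 ± 0.04 (SE; limma with Benjamini-Hochberg adjustment over the 316 tested miRNAs, adjusted p = 0.0203). On the linear scale this was a scaled signal of 2627 ± 39.9 in db/db against 2399 ± 57.2 in control kidneys. By size of change it ranked 194 of 316, and the median size of change over all tested miRNAs was 0.17. Slide row 2 held the db/db samples and row 1 the controls, so row and genotype cannot be told apart. In whole-kidney RNA, more cells that carry a miRNA and more of it per cell also cannot be told apart.

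The call of miR-26b-5p depended on single arrays and on the scaling. It was lost without control replicate 3 (change 0.13, adjusted p = 0.0588) and without db/db replicate 4 (change 0.12, adjusted p = 0.0659; limma for both). It was also lost when arrays were scaled to their median (change 0.11) and in the authors' deposited table (change 0.08). The direction was higher in db/db under all 22 alternatives. Against the median change of all tested miRNAs, which was -0.02, miR-26b-5p was 0.16 higher.

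mmu-miR-26a-5p, its seed partner, read 12.47, 12.35, 12.39 and 12.42 in db/db replicates 1 to 4, against 12.32, 12.32, 12.34 and 12.35 in control replicates 1 to 4. Db/db replicate 1 was the highest array, and db/db replicate 2 lay among the controls, so the groups overlapped. The means were 12.40 ± 0.05 in db/db and 12.33 ± 0.02 in control kidneys (SD, n = 4 each). The change of 0.07 ± 0.04 (SE; 95% interval -0.02 to 0.16) did not pass the test (limma, adjusted p = 0.178). As a fold this was 1.05, with an interval of 0.987 to 1.12 that holds the 1.10-fold of miR-26b-5p. The scaled signal was 5422 ± 190 in db/db and 5154 ± 61.7 in control kidneys.

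The changes of the 2 miR-26 guide strands were compared within each array, which takes out any scaling of the array. The log2 signal of miR-26b-5p minus that of miR-26a-5p was -1.04 ± 0.05 in db/db and -1.10 ± 0.04 in control kidneys (SD, n = 4 each). The difference between the groups was 0.06, within the spread between arrays (2-sided exact permutation test over 70 assignments, p = 0.114, adjusted p = 0.457 over 4 pairs; the smallest p it can give is 0.0286). That smallest p is before adjustment, and a pair alone at it would not pass once adjusted over 4 pairs. One member past the threshold and the other short of it is thus no shown difference between them.

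mmu-miR-101a-3p, the miR-101 guide strand, read 10.24, 10.24, 10.21 and 10.19 in db/db replicates 1 to 4, against 10.14, 10.17, 10.14 and 10.09 in control replicates 1 to 4. As for miR-26b-5p, every db/db array lay above every control array. Such a separation, db/db above, was seen in 24.7% of the tested miRNAs (16.8% had db/db below, 41.5% either). The means were 10.22 ± 0.02 in db/db and 10.13 ± 0.03 in control kidneys (SD, n = 4 each). The change of 0.09 ± 0.04 (SE; fold 1.06, 95% interval 1.00 to 1.12) did not pass the test after adjustment (limma, adjusted p = 0.0856). It did pass with a trend and robust variance in limma (adjusted p = 0.0323), with another background correction (change 0.09, adjusted p = 0.0382) and with no scaling between arrays (change 0.21, adjusted p = 0.0378). The scaled signal was 1192 ± 17.9 in db/db and 1123 ± 23.9 in control kidneys.

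Set against each other within arrays, miR-101a-3p minus miR-26a-5p was -2.18 ± 0.05 in db/db and -2.20 ± 0.05 in control kidneys (SD, n = 4 each). The change of the 2 families' guide strands differed by 0.01 (exact permutation test, 2-sided, p = 0.714, adjusted p = 0.771 over 4 pairs), a value whose sign turned under 3 alternatives.

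**Figure D2:**
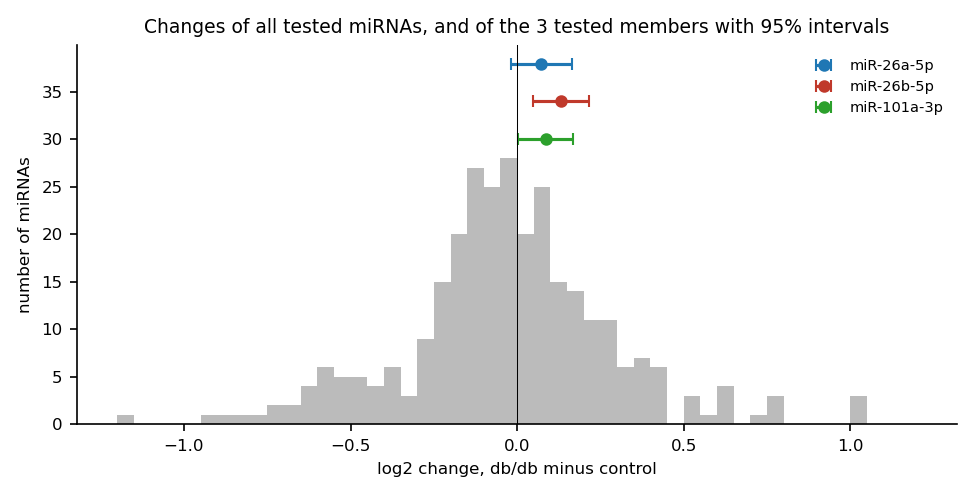
Histogram of the log2 change, db/db minus control, of the tested miRNAs in bins of 0.05, with the change of miR-26a-5p, miR-26b-5p and miR-101a-3p above it as points with 95% intervals (their height has no meaning). A total of 20 miRNAs with a change beyond 1.2 either way are not drawn; the 3 members, at 0.07, 0.13 and 0.09, lie in the middle of the distribution.

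Over all 316 tested miRNAs, the quartiles of the changes were -0.17 and 0.18, and all 3 tested members lie between them. Their standard errors of 0.04 were below the median standard error of 0.077, and 31.0% of all tested miRNAs had a change within 0.1 of 0. Before scaling, miR-26a-5p averaged 5677 ± 449 in db/db and 4946 ± 429 in control kidneys (SD, n = 4 each). The unscaled array level moved the same way, with a log2 75th percentile of 8.65 ± 0.07 on db/db arrays and 8.52 ± 0.11 on control arrays.

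Each of these 3 members was read by 2 probes of 15 spots each. For miR-26b-5p both probes gave a difference of 0.13. Those of miR-26a-5p gave 0.06 and 0.08, and those of miR-101a-3p gave 0.07 and 0.10. Within an array the spots of these probes varied by 1.09% to 5.62% (coefficient of variation). Both probes of each member thus read higher on average in db/db kidneys.

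Probe sequences show how far family members could share signal. They are printed 5′ to 3′, with bases that do not pair with the other member in capitals. The longer miR-26a-5p probe pairs with miR-26b-5p at 13 of 16 bases, and the longer miR-26b-5p probe pairs with miR-26a-5p at 18 of 20. The longer miR-101b-3p probe pairs with miR-101a-3p at 17 of 19 bases, and the shorter one at 17 of 18.
Probe of miR-26a-5p against miR-26b-5p: AGcctatcctgGatta
Probe of miR-26b-5p against miR-26a-5p: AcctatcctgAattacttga
Probe of miR-101b-3p against miR-101a-3p: agCtatcacagtactgtaC
Probe of miR-101c against miR-101a-3p: tcagttatcacagtactgt

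Cross-hybridisation between family members was not tested. The longer probe of miR-101b-3p, printed above, had a scaled signal of 11.0 ± 1.12 in db/db and 10.2 ± 1.87 in control kidneys (SD, n = 4 each), and on all 8 arrays it read above the 4.94 to 7.40 of the negative controls. The shorter probe of miR-101b-3p read 0.504 ± 0.843 in db/db and 0.341 ± 1.22 in control kidneys (SD, n = 4 each), below the negative controls on all 8 arrays. The longer probe of miR-101c pairs with miR-101a-3p at 19 of 19 bases, so the signals of miR-101c and miR-101a-3p cannot be told apart on this array.

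The miR-101c probes read 10.11, 10.09, 10.03 and 10.09 in db/db replicates 1 to 4, against 9.96, 9.96, 9.95 and 9.90 in control replicates 1 to 4. The groups did not overlap, and the change of 0.14 ± 0.04 (SE) passed the test (limma with Benjamini-Hochberg adjustment, adjusted p = 0.0205). The call held in 13 of 22 alternatives, and with quantile normalization the change was -0.01. Its sequence lies within that of miR-101a-3p, whose change of 0.09 fell short of the threshold.

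mmu-miR-26b-3p, the opposite arm of the miR-26b hairpin, read 2.61, 2.69, 2.40 and 2.10 in db/db replicates 1 to 4, against 2.83, 2.87, 2.34 and 2.17 in control replicates 1 to 4. Only db/db replicate 1 and control replicate 4 were called detected, and control replicate 4 was among the lowest readings. The detection call therefore did not follow the mean signal here. On the linear scale the scaled signal was 5.52 ± 0.96 in db/db and 5.99 ± 1.42 in control kidneys (SD, n = 4 each), beside 5.32 ± 0.58 and 6.01 ± 0.98 for the negative control probes of the same arrays. Of its 4 probes, 1 read above the range of the negative controls on all 8 arrays (9.64 to 14.2). No spot of the 4 probes was well above background, and no fold is given.

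mmu-miR-101b-3p read 2.53, 2.83, 2.35 and 2.31 in db/db replicates 1 to 4, against 2.09, 2.78, 2.04 and 2.53 in control replicates 1 to 4. It was called detected in control replicate 4 only, and the groups overlapped. The scaled signal was 5.73 ± 0.98 in db/db and 5.25 ± 1.32 in control kidneys (SD, n = 4 each), a mean of 1 probe above and 1 below the negative controls. Among 119 spot readings of its longer probe over the 8 arrays, 2 were well above background. In the authors' deposited table, control replicate 4 stands at 24.2 for this miRNA and the other arrays at 0.816 to 1.05, the array of the only detection call standing apart.

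**Figure D3:**
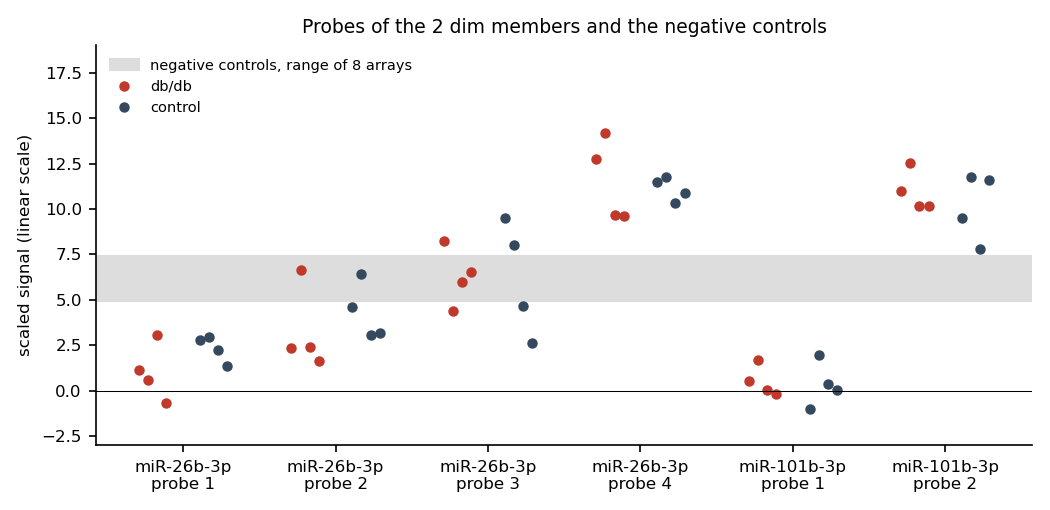
Scaled signal (linear) of each probe of miR-26b-3p (4 probes) and miR-101b-3p (2 probes) on the 4 db/db and 4 control arrays, with the range of the array means of the negative control probes shaded. Both groups overlap for every probe, and the readings lie from just below 0 to 14.2; probe 4 of miR-26b-3p and probe 2 of miR-101b-3p lie above the negative controls at 4.94 to 7.40 on all arrays, probe 1 of each below them.

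The 2 arms of miR-26b were compared within arrays as well. miR-26b-3p minus miR-26b-5p was -8.91 ± 0.27 in db/db and -8.68 ± 0.35 in control kidneys (SD, n = 4 each), a difference of -0.23 within the spread (exact permutation test, 2-sided, p = 0.286, adjusted p = 0.571 over 4 pairs). miR-101b-3p minus miR-101a-3p was -7.72 ± 0.22 in db/db and -7.77 ± 0.36 in control kidneys (SD, n = 4 each), a difference of 0.06 (exact permutation test, 2-sided, p = 0.771, adjusted p = 0.771 over 4 pairs). Each of these differences rests on a miRNA detected on 2 arrays or fewer.

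The opposite arms miR-26a-1-3p, miR-26a-2-3p, miR-101a-5p and miR-101b-5p were detected on no array. miR-144-3p, which shares the first 7 bases of miR-101a-3p, was detected on all 8 arrays with a change of 0.53 ± 0.66 (SE; limma, adjusted p = 0.530). Its SD of 1.13 in db/db and 1.03 in control kidneys (n = 4 each) was far wider than that of any tested family member.

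By the root mean square difference of log2 signals over the 8 arrays, each miRNA centred on its own mean, the 2 miRNAs most like miR-26b-5p were miR-130a-3p (0.0297) and miR-101c (0.0308). Those most like miR-26a-5p were miR-29b-3p (0.0334) and miR-532-5p (0.0338). Those most like miR-101a-3p were miR-29c-3p (0.0238) and miR-103-3p (0.0286). In each case these were the closest 2 of 266 other miRNAs, whose median distance was 0.138 to 0.151, and all share the same arrays and scaling. Between members the distance was 0.0504 for miR-26a-5p and miR-26b-5p, 0.0440 for miR-26a-5p and miR-101a-3p, and 0.0369 for miR-26b-5p and miR-101a-3p. The seed partners were thus no nearer to each other than either was to miR-101a-3p.

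**Figure D4:**
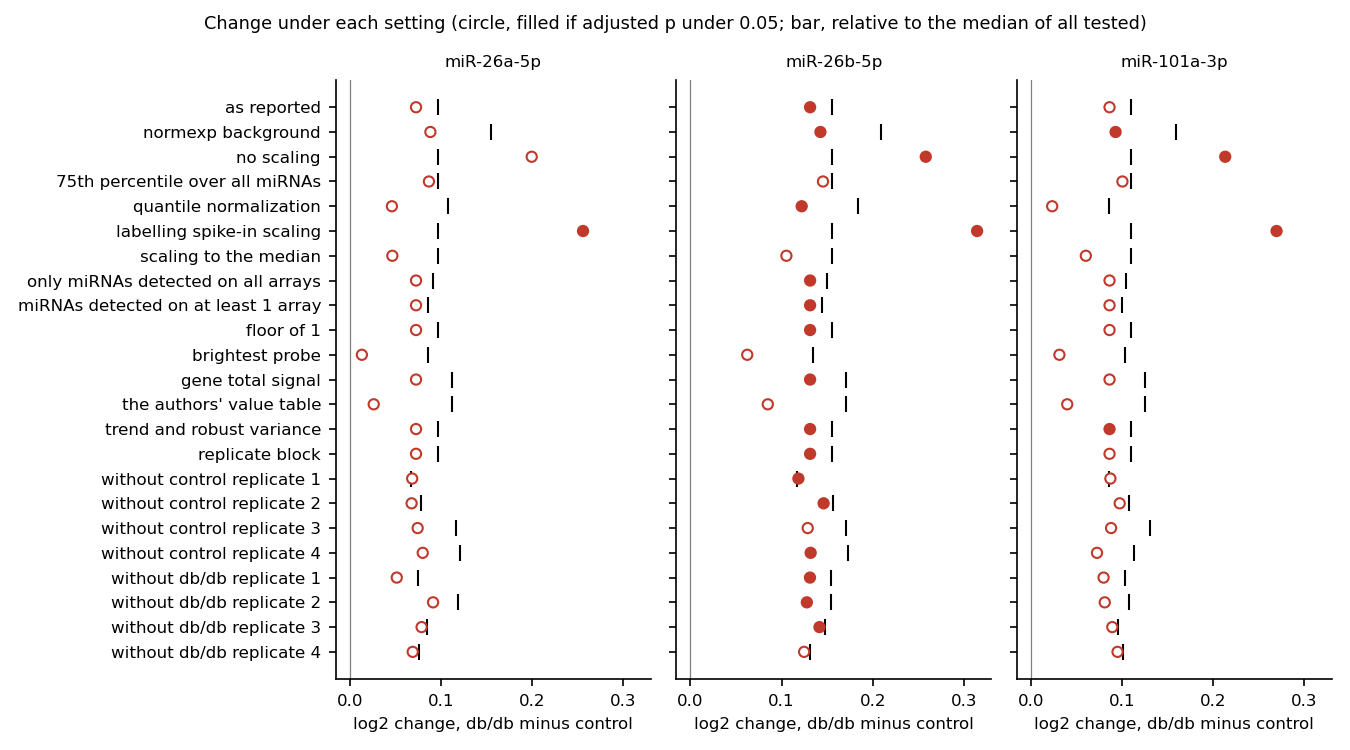
Log2 change, db/db minus control, of miR-26a-5p, miR-26b-5p and miR-101a-3p as reported and under 22 other settings; circles are filled where the adjusted p is under 0.05, and bars give the same change minus the median change of all tested miRNAs. All circles lie above 0, between 0.01 and 0.31, and the bars between 0.07 and 0.21.

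Across the 22 alternatives, miR-26b-5p was called in 16, miR-101a-3p in 4 and miR-26a-5p in 1. The largest changes came with scaling to the labelling spike-ins, at 0.26 for miR-26a-5p, 0.31 for miR-26b-5p and 0.27 for miR-101a-3p, all 3 called. That scaling moved the median change of all tested miRNAs to 0.16 as well. Relative to that median the members differed less between settings, from 0.07 to 0.16 for miR-26a-5p, from 0.12 to 0.21 for miR-26b-5p and from 0.09 to 0.16 for miR-101a-3p.

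Of 17 other miRNAs reported to target Ezh2, 13 were tested, 2 rose, 1 fell and 10 did not pass, beside 24.4% of all tested miRNAs called higher and 17.4% called lower, with a median change of 0.02 beside -0.02 over all tested miRNAs. miR-30d-5p rose by 0.30 ± 0.03 (SE; limma, adjusted p = 0.00042) and let-7d-5p by 0.17 ± 0.04 (SE; adjusted p = 0.0105). The call of let-7d-5p held in 17 of 22 alternatives, and with quantile normalization its change was 0.02 (limma, adjusted p = 0.494). miR-214-3p, a stromal miRNA, fell by 0.44 on the log2 scale (limma, adjusted p = 0.00292), with a change of -0.25 under normexp background correction. The calls of miR-30d-5p and miR-214-3p each held in 21 of 22 alternatives, all but the percentile over all miRNAs. Among those that did not pass, miR-144-3p had a change of 0.53 ± 0.66 (SE; limma, adjusted p = 0.530), let-7b-5p of -0.12 and let-7f-5p of 0.09. miR-124-3p, miR-137-3p, miR-138-5p and miR-217-5p were detected on no array.

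Of 16 miRNAs linked to kidney fibrosis and TGF-beta, 12 were tested, 1 rose, 4 fell and 7 did not pass, with a median change of 0.04. Over all tested miRNAs, 24.4% were called higher, 17.4% lower and 41.8% either way. miR-34a-5p, a p53 target, rose by 0.64 ± 0.09 (SE; limma, adjusted p = 0.000922). miR-132-3p fell by 0.75, miR-199a-3p by 0.42 and miR-199a-5p by 0.32 on the log2 scale, along with miR-214-3p. The signal of miR-132-3p was low, at 3.29 ± 0.15 in db/db and 4.04 ± 0.24 in control kidneys (SD, n = 4 each). It was detected on 3 of 4 db/db arrays. The change of miR-132-3p was -0.19 with normexp and, in the authors' deposited table, -2.06 and no longer past the threshold (limma, adjusted p = 0.187). miR-199a-5p lost its call with no scaling (-0.20), spike-in scaling (-0.14) and the percentile over all miRNAs (-0.31). The calls of miR-34a-5p and miR-199a-3p were lost with that percentile only, and the change of miR-199a-3p was -0.24 with spike-in scaling. miR-21a-5p, the injury-induced miRNA, had a change of 0.15 (limma, adjusted p = 0.0828). Its change was called in 6 of 22 alternatives and ran from 0.088 to 0.33 over them.

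Some markers of cell types were called between the same kidneys, beside 24.4% of all tested miRNAs called higher and 17.4% called lower. Of 4 tubule miRNAs, all detected on all 8 arrays, 2 were called higher. The other 2, miR-192-5p (change 0.08) and miR-194-5p (change -0.007), were not called (limma, adjusted p = 0.216 and 0.878). The summed scaled signal of all 4 was 11402 to 11814 in db/db against 10342 to 10856 in control kidneys. Of 5 leukocyte miRNAs, 4 were called lower, with a sum of 212 to 305 in db/db against 469 to 623 in control kidneys. The hepatocyte miRNA miR-122-5p summed to 50.2 to 133 in db/db against 0 to 2.36 in control kidneys, and it was not detected on any control array. None of the 2 endothelial, the 2 smooth muscle or the 2 tested erythroid miRNAs was called. Both endothelial miRNAs read lower in db/db and fell just short (limma, adjusted p = 0.0566 for miR-126a-3p and 0.0567 for miR-126a-5p). Their sum was 3648 to 3807 in db/db against 3913 to 4194 in control kidneys. Of 3 striated muscle miRNAs, miR-1a-3p was called higher and the other 2 were detected on no array. The part of these shifts in the values of miR-26b-5p and the other members was not tested.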

How the data were processed

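Each array received 100 ng of RNA labelled with Cy3, per the labels. The intensity of every spot and the detection flags were deposited as the scanner software wrote them (Agilent Feature Extraction 12.0.3.1, per the submitters' processing notes). The authors' deposited table gives each miRNA a linear ratio per array, whose scale and centring remain unknown (column medians 0.857, 1.01, 0.994 and 0.947 in db/db replicates 1 to 4, and 1.11, 1.10, 1.10 and 0.980 in control replicates 1 to 4). It was used only as an alternative. Its change rose with the change in the scanner files' gene total signal (correlation 0.951 across miRNAs, which are not independent replicates).

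Precision is limited by having 4 arrays per group. Processed signals were averaged over spots that were not outliers and then over probes, and each array was scaled by its 75th percentile over the 269 miRNAs that all 8 arrays detected. Detected miRNAs numbered 289 to 358 per array, and no miRNA spot was saturated. Scaled signals were set to at least 2.80 before log2. A fit with limma (version 3.58.1; lmFit, then eBayes; R 4.3.3, files read with the package data.table, version 1.17.8) covered the 316 miRNAs that every array of db/db, of control or of both detected. It was 2-sided, with Benjamini-Hochberg adjustment and a threshold of 0.05. miR-26b-3p and miR-101b-3p did not pass that filter and have values with no such test. The steps were tested on simulated data. Named were the 5 members, up to 6 miRNAs of each list (called ones first) and the 2 miRNAs most like each member; the members and lists were chosen with earlier results of these data known. Sequences come from RefSeq tables on GRCm38.p6.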

Additional observations from a re-analysis of the deposited data

How the results depend on the processing

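All 3 tested members kept their direction under the 22 alternatives, but none kept its side of the threshold in every one. miR-26b-5p lost its call when the 75th percentile was that of all 1881 miRNAs (0.15, limma, adjusted p = 0.962), the brightest probe of each miRNA (0.062), scaling to the median (0.11) and the authors' value table (0.085). Detected miRNAs numbered only 289 to 358 per array, so undetected miRNAs also lie above the 75th percentile of all 1881. miR-26a-5p passed with spike-in scaling (0.26), and miR-101a-3p passed with spike-in scaling (0.27), no scaling (0.21), normexp (0.093) and a trend and robust variance (0.086). Under the reported scaling the brighter probe of miR-26b-5p gave 0.13. In the brightest-probe setting the median change of all tested miRNAs was -0.07. The cause of these shifts was not tested. With 1 array left out, changes ran from 0.051 to 0.091 for miR-26a-5p, 0.12 to 0.15 for miR-26b-5p, 0.072 to 0.097 for miR-101a-3p, -0.23 to 0.013 for miR-26b-3p and 0.037 to 0.28 for miR-101b-3p. miR-101b-3p moved to -0.24 in the gene total signal and -1.35 in the authors' table, which fill undetected arrays.

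The count of miRNAs higher in db/db was 77, against 23 with the percentile over all miRNAs and 140 with spike-in scaling (70 to 82 with 1 array left out). The count lower was 55, against 11 with the percentile over all miRNAs, 28 with spike-in scaling, 28 with no scaling and 88 with the brightest probe (42 to 57 with 1 array left out). The share of calls that were higher, 58.3% as reported, was 78.1% with no scaling, 83.3% with spike-in scaling, 46.9% with quantile normalization and 40.9% with the brightest probe. Without scaling the median change of all tested miRNAs was 0.10.

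Of the differences between members, none past its test in any alternative, miR-26b-5p minus miR-26a-5p kept its sign in all 19 alternatives run, and the others turned sign in 1 or more. miR-101b-3p minus miR-101a-3p was -0.052 with the brightest probe, -0.32 in the gene total signal, -0.16 with normexp, -0.017 with quantile normalization and -1.39 in the authors' table (-0.051 to 0.19 with 1 array left out). miR-101a-3p minus miR-26a-5p was -0.023 with quantile normalization (-0.010 to 0.030 with 1 array left out). miR-26b-3p minus miR-26b-5p was 0.0099 with the brightest probe (-0.36 to -0.11 with 1 array left out). miR-26b-5p minus miR-26a-5p was 0.036 to 0.080 with 1 array left out. Among other named miRNAs, signs turned for miR-532-5p with normexp (-0.024), let-7b-5p with no scaling (0.0044) and spike-in scaling (0.061), miR-101c with quantile normalization (-0.012) and miR-29c-3p with the brightest probe (-0.0052).

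Centred per miRNA, same-numbered arrays correlated at -0.44, 0.58, 0.35 and -0.20 over 269 miRNAs, so no pairing was assumed. With the replicate number as a block, 81 miRNAs were higher and 63 lower, the change of miR-26b-5p was 0.13 and stayed past the threshold (limma, adjusted p = 0.0290), and no tested member changed its call.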
